A study of Mus musculus with 6 samples.

Results

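A set of 10 genes of the G1 cell-cycle machinery, the set that decides whether a resting cell leaves quiescence, was followed in naive CD4+ T cells taken from mesenteric lymph node (mLN) and from spleen. The genes are the D-type cyclin genes Ccnd2 and Ccnd3, the kinase genes Cdk4, Cdk6 and Cdk2, the inhibitor genes Cdkn1b, Cdkn2d and Cdkn1a, and the pocket-protein genes Rb1 and Rbl2. They were chosen by symbol, from their known roles, with earlier results of these data known. Each symbol matched 1 Ensembl identifier, so they are 10 of the 55487 identifiers measured. The mLN group held 3 libraries and the spleen group 3 libraries, all of freshly prepared, untreated cells from wild-type C57BL6/J mice, sequenced as polyadenylated RNA. The age of the mice, the gate that defined the cells as naive, and whether libraries of a group came from separate animals are not given in the labels, so a p-value here sets a difference against a spread that could be technical alone. The series asks which transcripts differ between naive cells resident in the lymph node that drains the gut and in the spleen.

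In a quiescent T cell the pocket proteins hold E2F transcription factors in check. Growth signals raise a D-type cyclin, which joins CDK4 or CDK6 and begins to phosphorylate the pocket proteins, and CDK2 completes that step later in G1. Inhibitors of the CIP/KIP family, such as the product of Cdkn1b, bind cyclin-kinase complexes, whereas those of the INK4 family, such as the product of Cdkn2d, bind CDK4 and CDK6 alone. Naive T cells are known as long-lived resting cells that keep Cdkn1b and Rbl2 expressed and are ready to divide after antigen recognition.

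Between 13205499 and 20054205 estimated reads per mLN library and between 14224966 and 17862485 per spleen library were assigned to genes. Levels are given as CPM, the count of a gene scaled to a common library size and corrected by TMM factors, which compares 1 gene between libraries, and as the deposited TPM, which is scaled per transcript length and compares genes with each other. The T cell markers summed to 5596 to 5706 CPM in mLN libraries and 5907 to 6126 CPM in spleen libraries, and Cd4 averaged 890 CPM in mLN and 929 CPM in spleen. Markers of several other cell types were lower in mLN: those of B cells summed to 31.8 to 42.6 CPM in mLN and 137 to 149 CPM in spleen (7 of 9 tested markers lower), and those of monocytes and macrophages to 12.1 to 12.3 CPM in mLN and 48.1 to 51.8 CPM in spleen (6 of 8 lower). Neutrophil markers summed to 0.15 to 1.24 CPM in mLN and 31.5 to 37.7 CPM in spleen (5 of 5 tested lower, with Ly6g at 0 in every library), dendritic cell markers to 0.75 to 1.10 CPM in mLN and 4.79 to 9.61 CPM in spleen, and memory and effector T cell markers to 156 to 167 CPM in mLN and 231 to 243 CPM in spleen (3 of 5 lower). Regulatory T cell markers summed to 31.3 to 44.1 CPM in mLN and 46.1 to 52.5 CPM in spleen (1 of 5 lower), CD8 markers to 12.5 to 20.4 CPM in mLN and 16.0 to 17.8 CPM in spleen, and NK cell markers to 58.5 to 73.2 CPM in mLN and 50.2 to 56.9 CPM in spleen (1 of 5 higher, 1 lower). Most of the NK sum was Prf1, at 59.8 CPM in mLN and 43.7 CPM in spleen. Prf1 was the only 1 of the 5 tested NK markers with a positive log2 fold change. Tyrobp, the marker called lower, averaged 0.223 CPM in mLN and 3.09 CPM in spleen. Erythroid markers, with Hbb-bt at 0, stayed at or under 0.67 CPM in mLN and 0.37 CPM in spleen. The part of these other cells in the results below was not tested. In a bulk library, fewer cells of a type and less RNA per cell cannot be told apart.

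Among the 10 genes, 9 passed the filter on low counts and were tested, and Cdkn1a did not. Ccnd2 and Rbl2 were higher in mLN cells and Cdkn1b was lower by edgeR's quasi-likelihood test at an adjusted p under 0.05. That is 2 of 9 higher, against 16.1% of all 12486 genes tested, and 1 of 9 lower, against 13.5%. The shares of 22.2% and 11.1% lie near those of the whole transcriptome, and the median log2 fold change of the 9 genes was 0.11, beside −0.01 over all genes. The Ccnd2 change was the largest of the 9 and was called under all 19 alternative settings tried. The calls of Cdkn1b and Rbl2 were small and were lost under several settings.

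**Figure D1:**
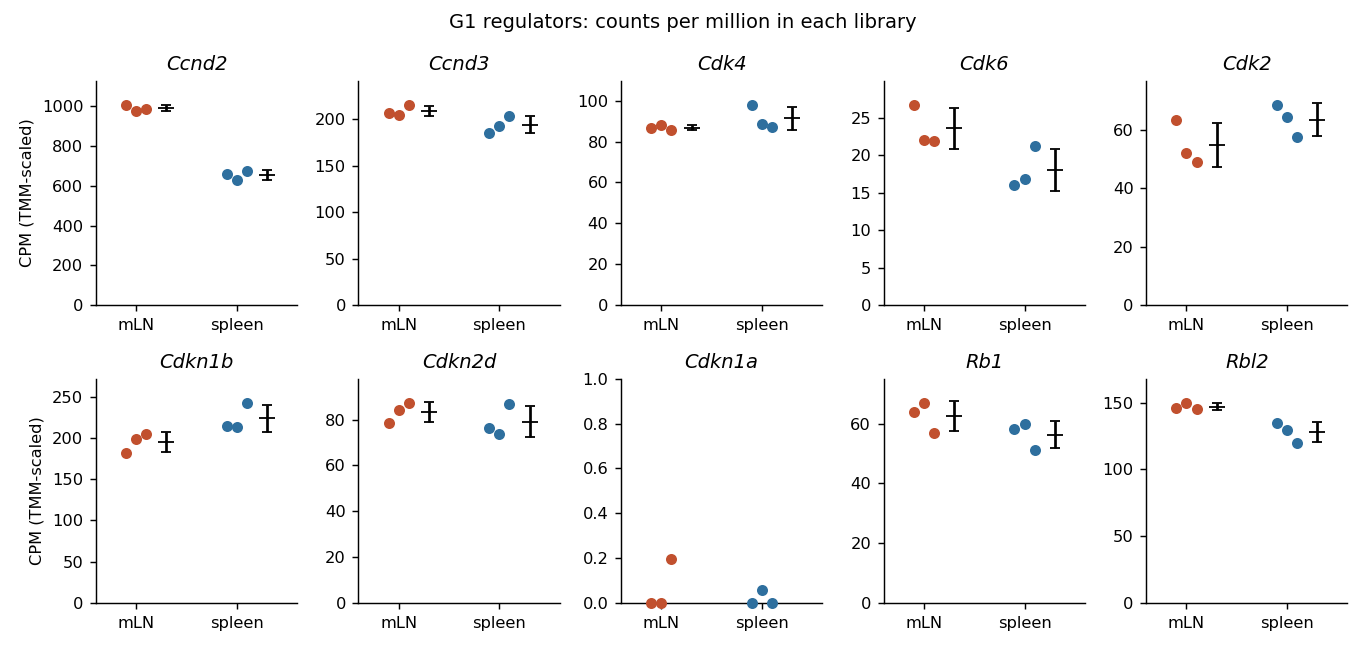
CPM of the 10 genes in each library (points), with the group mean and SD (bar and whiskers, n = 3) on a linear axis of its own for each gene, mLN left of spleen; for Cdkn1a only the points are drawn. Ccnd2 is the gene whose groups stand furthest apart, at 976 to 1005 CPM in mLN and 629 to 676 CPM in spleen.

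Ccnd2 (ENSMUSG00000000184, chr6:127125162-127152193, minus strand, mm10) encodes cyclin D2, a D-type cyclin that lymphocytes use on entry into the cycle. It had 1005, 976 and 986 CPM in the mLN libraries, against 657, 629 and 676 CPM in the spleen libraries. Every mLN library lay above every spleen library, and the 3 mLN values differed by 2.95% of their mean. The means were 989 ± 14.8 CPM in mLN and 654 ± 23.9 CPM in spleen (SD, n = 3 each). Ccnd2 rose 1.51-fold in mLN cells (log2 fold change 0.60, SE 0.0538, edgeR adjusted p = 6.86e-08), and 14.6% of all genes tested had a larger change of either sign. On the TPM scale Ccnd2 had 331, 320 and 375 TPM in mLN, against 202, 135 and 166 TPM in spleen, a ratio of group means of 2.03. TPM rests on RSEM's estimate of transcript length, which for this gene was 4627, 4648 and 3992 nt in mLN and 4165, 5792 and 5114 nt in spleen. These lengths overlapped between the groups, and the 8 annotated transcripts include coding forms from 627 to 6330 nt.

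Ccnd3 (ENSMUSG00000034165, chr17:47505051-47599691, plus strand) encodes cyclin D3, the D-type cyclin best known from thymocyte expansion. Its levels were 207, 205 and 215 CPM in mLN, against 185, 193 and 204 CPM in spleen. The groups did not overlap, but the lowest mLN library and the highest spleen library lay next to each other. The difference of 0.11 log2 units (SE 0.0648) did not pass the edgeR test, with an adjusted p of 0.241. It passed in 2 alternative fits, with the trend of fold change on gene length removed (0.24, adjusted p = 0.00601) and on log2(TPM + 1) by limma (0.30, adjusted p = 0.0396). The TPM fit also moves the median of all genes by 0.21, and after centring each library on its median it gave 0.05 for Ccnd3. With the trend on GC content removed the sign turned, to −0.04.

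Within each library the balance of the D-type cyclins was compared, a ratio that does not depend on library scaling. The TPM ratio of Ccnd2 to Ccnd3 was 1.54, 1.33 and 1.40 in the mLN libraries, against 1.09, 0.655 and 0.865 in the spleen libraries, with no overlap. Its log2 difference was 0.74, and the exact two-sided permutation test gave p = 0.1, the smallest that 3 against 3 libraries allow (0.2 after Benjamini-Hochberg adjustment over the 4 ratios tested), so no ratio here could pass 0.05. Counts over 1 fixed length per gene gave ratios of 1.53, 1.50 and 1.44 in mLN and 1.11, 1.02 and 1.04 in spleen, a log2 difference of 0.49. With the length trend removed the difference was 0.22, with the same exact permutation p. By TPM, Ccnd2 was the highest of the 10 genes in mLN cells, above Ccnd3 at 216, 241 and 267 TPM, whereas in spleen the ranges of Ccnd2 and Ccnd3 (186, 207 and 192 TPM) overlapped. Summed, both cyclins came to 583 ± 51.5 TPM in mLN and 363 ± 23.3 TPM in spleen (SD, n = 3 each). TPM sums carry the upward shift of all genes in mLN (median log2 0.21).

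The partner kinases of the D-type cyclins are CDK4 and CDK6, and CDK2 acts with cyclin E and cyclin A. None of their genes passed the edgeR test, although 2 had an unadjusted p under 0.05. Cdk4 (ENSMUSG00000006728, chr10:127063534-127067920, plus strand) is shown with its promoter window because that window holds 4 copies of the E-box CACGTG, the core site of MYC and its partners, and Myc itself was higher in mLN cells, as given with the upstream inputs below. The windows searched run from 250 bases before to 50 bases after each RefSeq gene start (RefSeq, GRCm38.p6), and capitals mark the E-boxes.
Cdk4, chr10:127063285-127063584, plus strand: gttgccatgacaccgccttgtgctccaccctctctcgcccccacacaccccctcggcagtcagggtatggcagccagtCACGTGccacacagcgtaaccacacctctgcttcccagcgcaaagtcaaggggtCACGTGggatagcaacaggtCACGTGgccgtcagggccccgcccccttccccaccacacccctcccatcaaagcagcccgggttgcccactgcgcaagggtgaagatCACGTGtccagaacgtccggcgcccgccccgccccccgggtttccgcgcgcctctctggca
The copies begin at bases 79, 133, 153 and 240, counted from 1 at the 5′ end, and only 8 of 32851 windows, those of 6 genes, hold 4 or more. At least 1 E-box stands in 7.15% of windows. Cdk6 has 1 E-box and 1 of the Ccnd3 windows the FoxO letters given below, and the windows of Cdk2, Cdkn2d and Cdkn1a hold none of the motifs searched. Ccnd2 and Rb1 had no window and were not searched. A match describes letters and is not a measured site. Cdk4 itself was not called, and a link from Myc to Cdk4 was not tested.

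Cdk4 had 86.6, 87.9 and 85.6 CPM in mLN, against 97.8, 88.7 and 87.3 CPM in spleen. The groups overlapped, the log2 difference was −0.07 (SE 0.0812), and the adjusted p from edgeR was 0.548. The sign depends on the scale, since the length-corrected fit gave 0.08, log2(TPM + 1) gave 0.31 and its median-centred form 0.06, none of which passed. In TPM, Cdk4 had 123, 103 and 121 in mLN and 106, 92.2 and 82.4 in spleen.

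Cdk6 (ENSMUSG00000040274, chr5:3341485-3531008, plus strand) was the lowest expressed of the tested genes. It had 26.7, 22.1 and 22.0 CPM in mLN, against 16.1, 16.9 and 21.3 CPM in spleen. The groups did not overlap, and spleen replicate 3 lay close to the mLN libraries. The fold of 1.30 (log2 0.38, SE 0.148) narrowly missed the threshold with an edgeR adjusted p of 0.0571, and without spleen replicate 3 it was 0.50 with an adjusted p of 0.0193. Removing the length trend left 0.16 (adjusted p = 0.474). Per length the picture was less stable: Cdk6 had 4.51, 4.71 and 4.63 TPM in mLN, against 7.41, 2.24 and 4.86 TPM in spleen. The spleen library with the highest TPM was the one in which RSEM assigned the shortest length.

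Cdk2 (ENSMUSG00000025358, chr10:128697939-128705031, minus strand) had 63.3, 52.2 and 49.0 CPM in mLN, against 68.6, 64.6 and 57.6 CPM in spleen. The groups overlapped through mLN replicate 1. The log2 difference of −0.21 (SE 0.103) had an adjusted p of 0.127 by edgeR, which became 0.0315 without mLN replicate 1 and 0.0452 without spleen replicate 3. Cdk2 had 41.1, 37.7 and 31.1 TPM in mLN and 36.4, 33.9 and 31.7 TPM in spleen, which overlapped, and on log2(TPM + 1) the sign turned, to 0.10.

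The ratio of Cdk6 to Cdk4 changed sign with the scale. Its TPM values were 0.0368, 0.0457 and 0.0383 in mLN and 0.0699, 0.0243 and 0.0590 in spleen, a log2 difference of −0.21 (exact two-sided permutation p = 0.7, adjusted 0.933). With counts over 1 fixed length the ratios were 0.0640, 0.0522 and 0.0533 in mLN and 0.0342, 0.0395 and 0.0506 in spleen, and the difference was 0.46. In either tissue and on either scale, Cdk4 was the more abundant of the pair in every library. The 3 kinase genes summed to 157 ± 11.4 TPM in mLN and 132 ± 15.8 TPM in spleen (SD, n = 3 each), sums that carry the same shift of all genes in TPM.

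**Figure D2:**
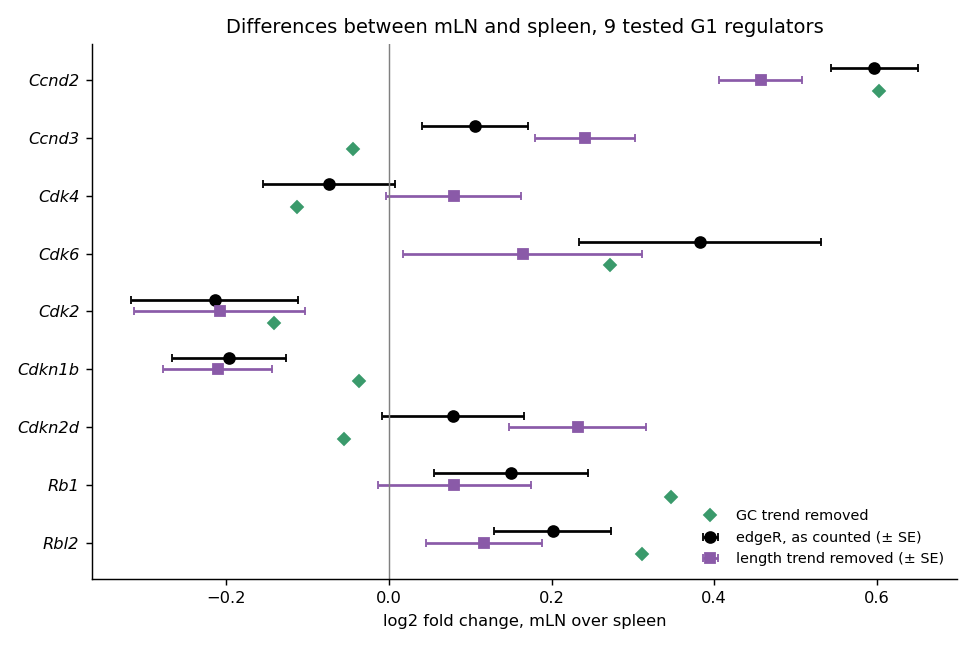
Log2 fold change (mLN minus spleen) of the 9 tested genes from edgeR's quasi-likelihood fit (circles), with the length trend removed (squares), both with bars of 1 SE, and with the GC trend removed (diamonds, no bars). Ccnd2 stays between 0.46 and 0.60 in all 3 fits, whereas Ccnd3, Cdk4 and Cdkn2d lie on both sides of 0.

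In TPM, Cdkn1b and Cdkn2d lay at like levels in mLN, with overlapping ranges, and Cdkn1a was barely detected in either tissue. Cdkn1b (ENSMUSG00000003031, chr6:134920401-134925513, plus strand) encodes the CIP/KIP inhibitor p27, which restrains resting T cells. Its window is shown as the promoter of the inhibitor that was called, and it holds none of the 5 motifs searched on both strands, so nothing is in capitals.
Cdkn1b, chr6:134920151-134920450, plus strand: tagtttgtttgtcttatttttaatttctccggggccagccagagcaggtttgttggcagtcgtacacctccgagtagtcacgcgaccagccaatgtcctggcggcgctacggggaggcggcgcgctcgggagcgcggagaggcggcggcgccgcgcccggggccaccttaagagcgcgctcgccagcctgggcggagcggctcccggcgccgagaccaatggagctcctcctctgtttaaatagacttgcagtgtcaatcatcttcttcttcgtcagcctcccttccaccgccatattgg
The window is 62.0% G and C with 30 CpG, beside medians of 52.7% and 7 CpG over all windows. The other motifs searched were GTAAACA for FoxO factors (3.65% of windows), TTTNGCGC for E2F factors (1.38%), TTTGAA for the cell-cycle homology region bound by MuvB complexes (17.9%) and TTCNNNGAA for STAT factors (8.30%). That these letters are missing says nothing of the factors.

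Cdkn1b had 182, 199 and 205 CPM in mLN, against 215, 214 and 243 CPM in spleen. Every mLN library lay below every spleen library. The means were 195 ± 12.0 CPM in mLN and 224 ± 16.5 CPM in spleen (SD, n = 3 each), and Cdkn1b was 0.873-fold in mLN cells (log2 −0.20, SE 0.0703, edgeR adjusted p = 0.0390). The call was lost without mLN replicate 1 (adjusted p = 0.177), mLN replicate 2 (0.0691) or spleen replicate 3 (0.145), and with the GC trend removed (log2 −0.04, adjusted p = 0.773). It was also lost in TPM, where the means were 107.5 in mLN and 107.5 in spleen (limma log2 0.00287, adjusted p = 0.987), and on centred TPM (−0.24, adjusted p = 0.109). TPM divides by RSEM's length, which for Cdkn1b was 2868, 2844 and 2881 nt in mLN, against 2815, 2743 and 2699 nt in spleen.

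Cdkn2d (ENSMUSG00000096472, chr9:21288410-21291407, minus strand), which encodes an INK4 inhibitor of CDK4 and CDK6, had 78.6, 84.3 and 87.3 CPM in mLN, against 76.5, 73.9 and 86.6 CPM in spleen. The groups overlapped, with a log2 difference of 0.08 (SE 0.0872, edgeR adjusted p = 0.551), which turned to −0.06 with the GC trend removed. In TPM the groups were apart, at 98.9, 108 and 113 in mLN and 79.2, 77.5 and 91.2 in spleen, and limma on log2(TPM + 1) called it (0.36, adjusted p = 0.0235). That call was lost after centring each library on its median (0.12, limma adjusted p = 0.430). Cdkn1a (ENSMUSG00000023067, chr17:29090976-29100727, plus strand), the p53 target that encodes p21, had 0, 0 and 4 reads in mLN, against 0, 1 and 0 in spleen. A count of 3 corresponds to 0.150 to 0.227 CPM in these libraries, so Cdkn1a was at or near the limit of detection in both tissues and no fold is given.

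The CIP/KIP inhibitor was then set against the INK4 inhibitor within each library. The TPM ratio of Cdkn1b to Cdkn2d was 1.01, 1.03 and 0.986 in mLN, against 1.28, 1.32 and 1.31 in spleen. The groups stood apart by far more than the spread within them, with a log2 difference of −0.37 and an exact two-sided permutation p of 0.1, the smallest possible (adjusted 0.2). Counts over 1 fixed length gave a difference of −0.28, and leaving out single libraries, in TPM, gave −0.38 to −0.35. The ratio itself was not computed with the GC trend removed. In that fit the log2 fold changes of Cdkn1b (−0.04) and Cdkn2d (−0.06) lay close together, so the difference between the tissues depends on GC treatment. From counts over 1 length the ratio was 1.15, 1.18 and 1.17 in mLN and 1.40, 1.44 and 1.40 in spleen. Cdkn1b and Cdkn2d were thus near 1 to 1 in mLN in TPM only, and Cdkn1b was the higher in every spleen library on both scales.

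**Figure D3:**
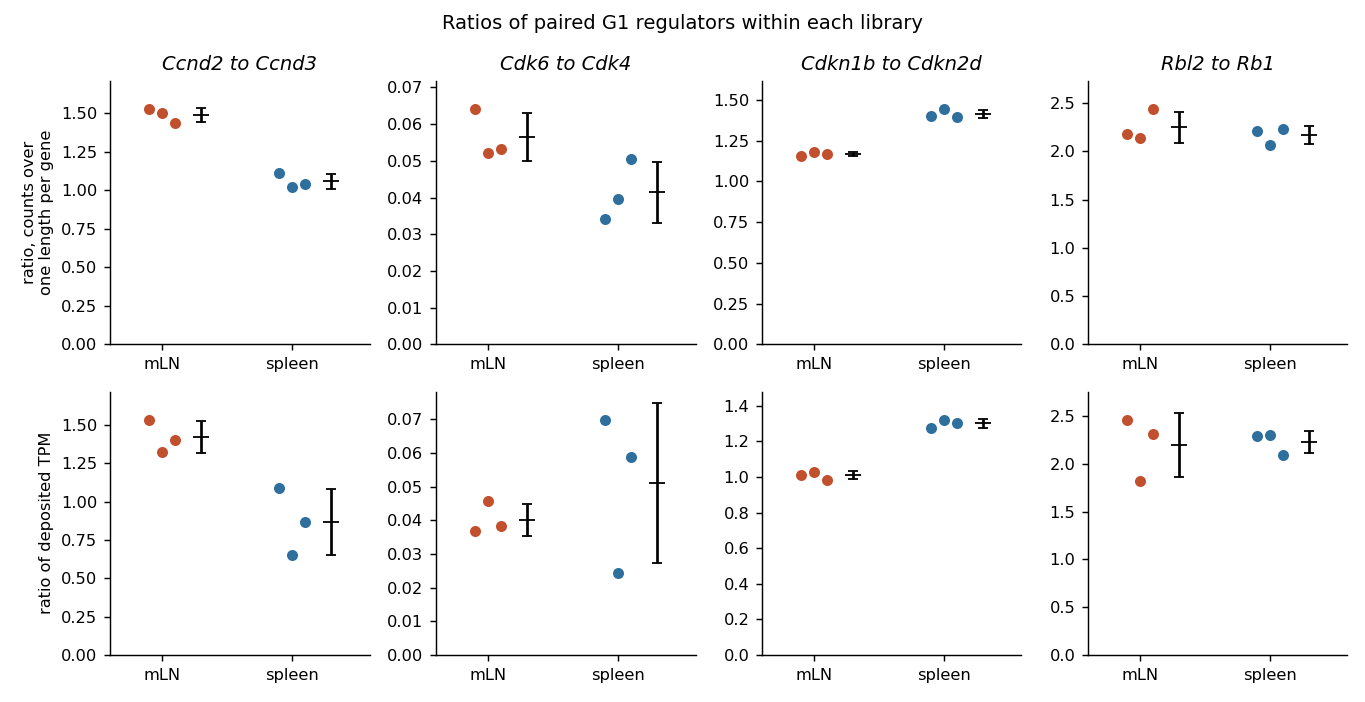
Ratio within each library (points) for 4 pairs of genes, from counts over 1 length per gene (upper row) and from deposited TPM (lower row), with the group mean and SD (n = 3), mLN left of spleen, on linear axes. Ccnd2 to Ccnd3 and Cdkn1b to Cdkn2d do not overlap between the tissues on either scale, Cdk6 to Cdk4 overlaps in TPM, and Rbl2 to Rb1 overlaps on both.

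The pocket proteins bind E2F factors and repress their targets, and p130, the product of Rbl2, does so mainly in resting cells, within the complex that also holds MuvB. Rbl2 (ENSMUSG00000031666, chr8:91070057-91123844, plus strand) is shown with its window because it was called and holds the MuvB-bound letters, on the minus strand at bases 50 to 55, in capitals.
Rbl2, chr8:91069807-91070106, plus strand: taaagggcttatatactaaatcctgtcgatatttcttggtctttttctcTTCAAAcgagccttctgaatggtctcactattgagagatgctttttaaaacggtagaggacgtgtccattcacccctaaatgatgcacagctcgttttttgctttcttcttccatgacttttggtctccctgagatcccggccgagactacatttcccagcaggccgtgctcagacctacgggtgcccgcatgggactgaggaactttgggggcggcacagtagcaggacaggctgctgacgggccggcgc
The letters stand in 17.9% of all windows, so the match is not rare.

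Rbl2 had 146, 149.9 and 145 CPM in mLN, against 134, 129.5 and 119.6 CPM in spleen. Every mLN library lay above every spleen library. The means were 147 ± 2.49 CPM in mLN and 128 ± 7.60 CPM in spleen (SD, n = 3 each), and Rbl2 rose 1.15-fold (log2 0.20, SE 0.0719, edgeR adjusted p = 0.0389). The call held only narrowly: it was lost without any single library other than spleen replicate 1 (adjusted p 0.0596 to 0.184), with upper-quartile factors (0.15, adjusted p = 0.115), with no filter (adjusted p = 0.0590), on log2(TPM + 1) (0.38, adjusted p = 0.0506) and its centred form (0.13, adjusted p = 0.496), and with the length trend removed (0.12, adjusted p = 0.262). Rbl2 had 62.7, 52.0 and 51.3 TPM in mLN, against 46.7, 42.4 and 37.8 TPM in spleen, again without overlap. With the GC trend removed the change was larger (0.31, adjusted p = 8.85e-05).

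Rb1 (ENSMUSG00000022105, chr14:73183673-73325822, minus strand) had 63.8, 67.0 and 57.0 CPM in mLN, against 58.1, 59.9 and 51.1 CPM in spleen. The groups overlapped, with a log2 difference of 0.15 (SE 0.0943, edgeR adjusted p = 0.255), and only the fit with the GC trend removed called it (0.35, adjusted p = 0.000902). In TPM it had 25.5, 28.5 and 22.2 in mLN and 20.4, 18.4 and 18.0 in spleen, without overlap. Lpar6 lies within Rb1 on the other strand and Rcbtb2 overlaps its end, with 4259 and 5832 reads beside 5786 of Rb1 over the 6 libraries. Ccnd3, Cdk4, Cdk2 and Rbl2 also overlap a protein-coding gene on the other strand. Ccnd2, Cdk6 and Cdkn1a overlap only genes not classed as protein-coding there, each with at most 36 reads over the 6 libraries. The kit was directional, but the strand setting of the counting is not given in the sources used here, so reads of these partners could not be told apart if counting ignored strand. The ratio of Rbl2 to Rb1 in TPM was 2.46, 1.83 and 2.31 in mLN and 2.29, 2.30 and 2.10 in spleen, a log2 difference of −0.03 (exact two-sided permutation p = 1, adjusted 1).

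**Figure D4:**
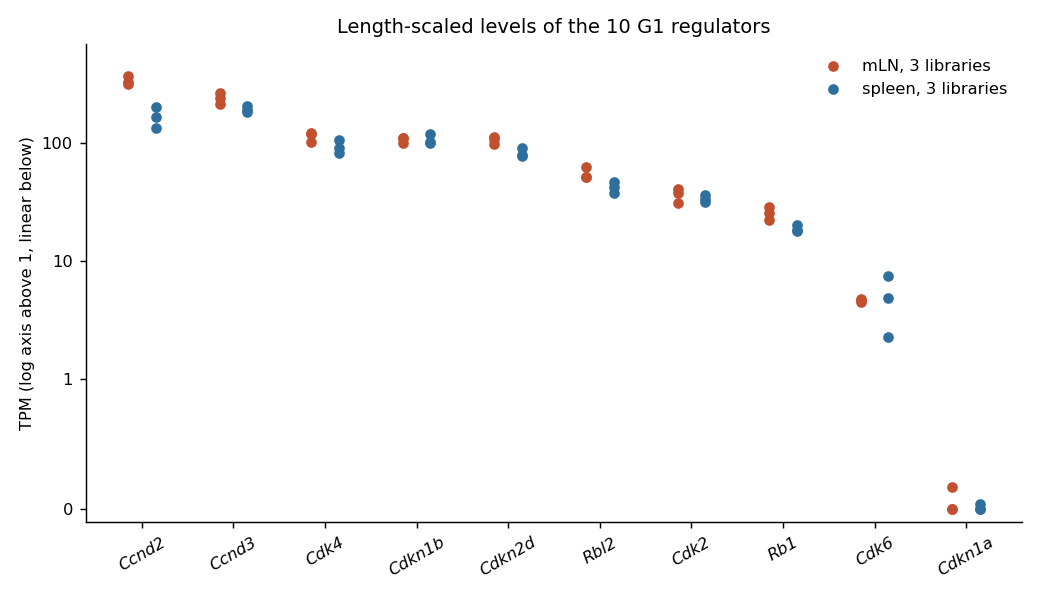
Deposited TPM of the 10 genes in each library (points) on an axis that is logarithmic above 1 and linear below, mLN left of spleen, ordered by level. In both tissues D-type cyclins lead, Cdk4, Cdkn1b and Cdkn2d lie between 77.5 and 123 TPM, and Cdk6 and Cdkn1a are lowest.

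Ordered by mean TPM, mLN cells had Ccnd2, then Ccnd3, then Cdk4, Cdkn1b and Cdkn2d with overlapping ranges, then Rbl2, Cdk2, Rb1, Cdk6 and Cdkn1a, each apart from its neighbour. In spleen cells Ccnd3 and Ccnd2 overlapped at the top, Cdkn1b, Cdk4 and Cdkn2d overlapped below them, and the order from Rbl2 down was the same. Counting groups that do not overlap, 4 of 9 genes had every mLN library above every spleen library in CPM (Ccnd2, Ccnd3, Cdk6 and Rbl2), against 21.5% of all genes, and 1 of 9 (Cdkn1b) below, against 20.3%. In TPM, 5 of 9 lay above (Ccnd2, Ccnd3, Cdkn2d, Rb1 and Rbl2), against 35.1%, and 0 of 9 below, against 6.22%. RSEM's weighted length was above in mLN for Cdkn1b alone, against 5.88% of genes with more than 1 transcript, and below for none, against 4.45%. The inhibitors summed to 214 ± 13.1 TPM in mLN and 190.1 ± 17.4 TPM in spleen, and the pocket proteins to 80.7 ± 7.27 TPM in mLN and 61.2 ± 5.65 TPM in spleen (SD, n = 3 each). On log2(TPM + 1) the median of all genes is itself 0.21 higher in mLN. The sums of the cyclins, kinases, inhibitors and pocket proteins are therefore not read as rises of a family.

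Gene length moved with the comparison across the transcriptome. Of 1421 genes with a length up to 1000 nt, 11 were called higher and 423 lower in mLN, whereas of 607 genes over 6000 nt, 277 were higher and 16 lower. Ccnd2 falls in the class of 4000 to 6000 nt, where 554 of 1624 genes were higher and 71 lower with a median log2 fold change of 0.18. With that trend removed the Ccnd2 change was 0.46 (adjusted p = 2.33e-06). Rbl2 and Cdkn1b fall in the class of 2000 to 4000 nt, with a median of 0.04. Rbl2 lies at the upper edge of that class, with mean lengths of 4097 nt in mLN and 3889 nt in spleen. With the trend removed the Rbl2 change was 0.12 (edgeR adjusted p = 0.262) and that of Cdkn1b −0.21 (0.0263).

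Genes around the G1 core were read in 8 lists. The lists were chosen with earlier results of these data known, so their counts and medians are descriptive only. Over all 12486 genes tested, 16.1% were called higher and 13.5% lower. Counts near these shares are not read as results about a list. Of 12 inputs on D-type cyclins and Cdkn1b, 10 rose and 1 fell, with a median log2 fold change of 0.38. Stat3, a cytokine-driven transcription factor, rose 1.71-fold, to 366 ± 7.39 CPM in mLN, against 214 ± 3.12 CPM in spleen (adjusted p = 7.01e-09). Myc, a growth regulator, rose 1.66-fold, to 99.4 ± 9.74 CPM in mLN, against 59.9 ± 0.471 CPM in spleen (adjusted p = 2.29e-06). Gsk3b, whose kinase marks D-type cyclins for destruction, rose 1.47-fold, and Il7r, the receptor for the survival cytokine IL-7, fell to 0.568-fold (SD, n = 3 each for all means here, edgeR for all adjusted p). The genes of this list do not act in 1 direction: Akt1 and Akt2 encode kinases that inhibit the product of Gsk3b, and all 3 rose. The Akt2 call was lost without spleen replicate 1 (adjusted p = 0.0634) or spleen replicate 2 (0.0558). Within this list 8 rose and 1 fell with the length trend removed, and 6 rose and 1 fell on median-centred TPM.

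Of 15 tested E2F, DP and MuvB genes, 3 rose and 0 fell, against 16.1% and 13.5% of all genes. Their median was −0.05, 4 had an unadjusted p under 0.05, and DESeq2 and limma-voom each called 3. E2f4, the E2F that partners pocket proteins in resting cells, rose 1.57-fold, to 95.8 ± 8.88 CPM in mLN, against 61.1 ± 2.10 CPM in spleen (edgeR adjusted p = 9.96e-06). E2f2 rose 1.35-fold (adjusted p = 0.0244) and Mybl2, at 3.25 CPM in mLN and 1.24 CPM in spleen, 2.62-fold (adjusted p = 0.0173). The calls of E2f2 and Mybl2 were each lost without several single libraries, and that of E2f2 with the length trend removed.

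Among the E2F-driven replication genes, 1 of 23 rose and 4 fell, against 16.1% and 13.5% of all genes, with a median of −0.11. Pcna, the clamp of DNA polymerases, fell to 0.697-fold, with 136 ± 7.40 CPM in mLN and 195 ± 10.2 CPM in spleen (adjusted p = 9.15e-06). Slbp, which binds histone mRNA, fell to 0.661-fold, Mcm7 of the replicative helicase to 0.760-fold and Rpa2 of the single-strand binding complex to 0.694-fold, whereas Cdt1, a licensing factor, rose 1.35-fold (adjusted p = 0.0176). The Cdt1 call was lost without mLN replicate 3 (adjusted p = 0.131), spleen replicate 1 (0.0655) or spleen replicate 2 (0.103), with the GC trend removed (0.108) and in both TPM fits (0.152, and 0.550 centred). On log2(TPM + 1), whose median is shifted, 1 rose and 1 fell and the list's median was 0.12. Of 15 tested S, G2 and M phase genes edgeR called none, 1 had an unadjusted p under 0.05, and DESeq2 and limma-voom called 0. Their 22 genes summed to 34.3, 40.6 and 36.3 CPM in mLN, against 42.7, 44.5 and 42.0 CPM in spleen. Mki67 averaged 4.50 CPM in mLN and 6.04 CPM in spleen (adjusted p = 0.276), and Top2a 8.36 CPM in mLN and 10.7 CPM in spleen (adjusted p = 0.256), so these genes of dividing cells were low in both.

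The degradation genes of Cdkn1b's product and of G1 cyclins were split, with 4 of 16 higher and 3 lower, against 16.1% and 13.5% of all genes. Their median was 0.04. Rnf123, a subunit of the ubiquitin ligase that destroys p27 in G1, rose 1.42-fold, to 199.7 ± 12.7 CPM in mLN, against 141 ± 3.05 CPM in spleen (edgeR adjusted p = 1.14e-05). Ambra1, which directs D-type cyclins to destruction, rose 1.35-fold (adjusted p = 0.000495), and the deubiquitinase gene Usp19 1.32-fold, whereas Skp1a, a core subunit of SCF ubiquitin ligases, fell to 0.786-fold (adjusted p = 0.00273). The Skp1a call was lost with the length trend removed (adjusted p = 0.127). Skp2, the S-phase ligase adaptor for p27, had 6.17 CPM in mLN and 5.63 CPM in spleen and did not pass (adjusted p = 0.745).

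Quiescence factors of naive T cells were also split, with 4 of 14 higher and 3 lower, against 16.1% and 13.5% of all genes. Their median was 0.09. Foxo1, a transcription factor that holds naive cells at rest, rose 1.36-fold, to 415 ± 17.7 CPM in mLN, against 306 ± 9.57 CPM in spleen, and Tob2, an anti-proliferative gene, rose 1.74-fold. Slfn2, whose loss ends quiescence in mouse T cells, fell to 0.642-fold, and Ccng2, an atypical cyclin of resting cells, to 0.633-fold. All 4 had edgeR adjusted p between 1.60e-07 and 7.67e-06. With the length trend removed, the Foxo1 log2 fold change went from 0.44 to 0.18 (edgeR adjusted p = 0.0196). In that fit Tob2 was at 0.76, Slfn2 at −0.54 and Ccng2 at −0.66, and 3 genes of the list were higher and 3 lower. Of 19 tested genes of the p53 list, 1 rose and 5 fell, with a median of −0.03. Trp53 rose 1.31-fold (adjusted p = 0.000252), whereas Sesn1, a stress-response gene, fell to 0.535-fold (adjusted p = 4.28e-08), Ccng1, a p53-induced cyclin gene, to 0.760-fold and Fas, a death receptor gene, to 0.606-fold.

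Of the 13 other G1 regulators, 11 were tested, 1 rose and 1 fell, against 16.1% and 13.5% of all genes. Their median was −0.10. Cdc25a, the phosphatase that activates CDK2, rose 1.35-fold (33.0 ± 4.31 CPM in mLN and 24.6 ± 2.87 CPM in spleen, adjusted p = 0.0167), and Cdkn2c, an INK4 inhibitor, fell to 0.343-fold (1.27 ± 0.261 CPM in mLN and 3.72 ± 0.919 CPM in spleen, adjusted p = 0.00752). The Cdc25a call was lost without mLN replicate 1 or spleen replicate 2, and that of Cdkn2c without spleen replicate 2. Cdkn2a was at 0 in all 6 libraries, and Ccnd1, at 0.737 CPM in mLN and 1.68 CPM in spleen, did not pass.

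**Figure D5:**
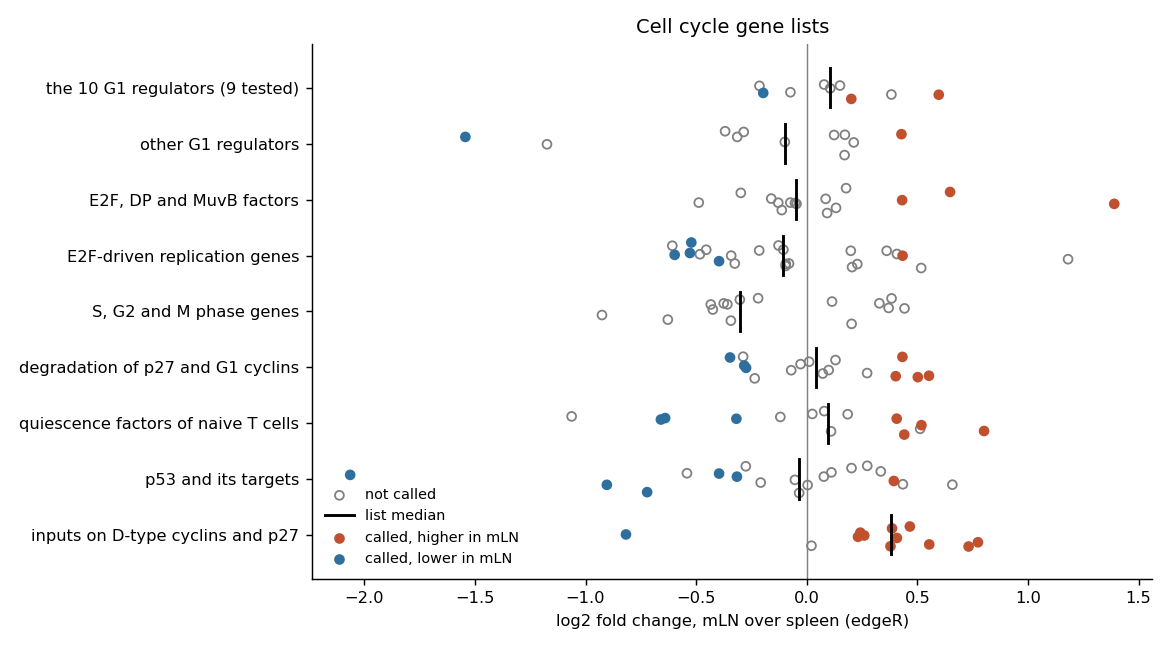
Log2 fold change (mLN minus spleen) of each tested gene in the 10-gene set and in 8 lists around it (points), with calls at an edgeR adjusted p under 0.05 marked and the median of each list drawn as a line. The inputs on D-type cyclins and Cdkn1b have the highest median, 0.38, and the S, G2 and M phase genes the lowest, −0.30, with 0 calls. The lists were chosen with earlier results of these data known, so their order is descriptive only.

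The medians of these lists move with the scale. On log2(TPM + 1), where the median of all genes is 0.21, the 8 list medians ran from 0.02 to 0.57, and on its centred form from −0.23 to 0.32. The median of the other G1 regulators turned positive with the length trend removed (0.05) and on TPM (0.05), that of the E2F list likewise (0.02 and 0.29) and on centred TPM (0.05), those of the p53 list (0.15) and of the S, G2 and M phase genes (0.02) on TPM, and that of the degradation list turned negative with upper-quartile factors (−0.01). With those factors 1 of the S, G2 and M phase genes was called lower. On log2(TPM + 1) the calls of Pcna (adjusted p = 0.0510), Mcm7, Rpa2, Skp1a, Ccng1, Ccng2, Cdt1 and Mybl2 were lost, and on the centred form those of Tob2, Usp19, Ambra1, Rpa2, Skp1a, Cdc25a, Cdt1, Akt1, Akt2 and Mybl2. None of the list genes named as called changed sign under the 19 alternatives.

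The genes most like each called gene were taken by the smallest root mean square difference in centred log2 CPM over the 6 libraries, among 6675 protein-coding genes with at least 20 CPM. For Ccnd2 they were Hyou1 (difference 0.0238 log2 units; 153, 147 and 144 CPM in mLN, against 95.4, 92.9 and 100.6 CPM in spleen) and Prkch (0.0253). For Cdkn1b they were Cmas (0.0233) and Pnpla7 (0.0339), and for Rbl2 Kmt5b (0.0176) and Pdcd4 (0.0215).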

How the data were processed

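RNA-seq of 3 mLN and 3 spleen libraries was used. RNA was extracted with RNAiso Plus and made into libraries with the NEBNext Ultra II Directional kit, per the labels' protocols. The submitters' processing notes name STAR, RSEM and mm10. Versions, annotation release and the counting's strand setting were not given in the sources used here. Expected counts, as deposited, are estimates per gene without normalization, per the file headers. The deposited TPM and FPKM values are scaled by length and depth by the authors, per the file headers, and FPKM was not used for any result. The deposited lengths are RSEM's abundance-weighted transcript lengths in nucleotides, per the file headers.

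Of 55487 identifiers, 55141 had a symbol. Expected counts were rounded, filtered with filterByExpr by group (12486 genes kept) and scaled by TMM. Tissue was tested two-sided with edgeR's quasi-likelihood F test. P-values were adjusted by Benjamini and Hochberg's method across the whole table, and calls needed an adjusted p under 0.05. Fold changes are mLN over spleen, and SE is the absolute log2 value divided by the root of F. For TPM, limma was run on log2(TPM + 1), which understates changes of low genes. The 4 ratios within libraries were compared with exact permutation tests over libraries. Coordinates come from GENCODE vM21 on GRCm38, the assembly of mm10, and promoter windows from RefSeq (8 of 10 genes matched, all but Ccnd2 and Rb1). A count of 3 was taken as the floor, for counting error only. Replicates differed by more than sampling noise (chi-square per degree of freedom 5.66 to 12.0), so none was merged.

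All 10 genes are named. From each list at most 4 called genes with the smallest p are named, and for each called gene the 2 most similar genes over the libraries. Others named (Cdt1, Akt1, Akt2, Skp2, Mki67, Top2a, Ccnd1, Cdkn2a) were chosen after their values were seen. The 10 genes and all lists were chosen with earlier results of these data known. Some genes of the lists are not reported here by name. Scripts were tested on simulated data. The 19 alternatives are given in the closing section. Statistics used edgeR 4.0.16, limma 3.58.1 and DESeq2 1.42.0 in R 4.3.3. Tables and plots used pandas 2.3.3, numpy 2.4.6 and matplotlib 3.10.9 in Python 3.11.15.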

Additional observations from a re-analysis of the deposited data

How the results depend on the processing

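Ccnd2 was called higher under all 19 alternatives, with log2 fold changes of 0.46 to 1.04. The number of the 10 genes called higher was 1 with upper-quartile factors, on median-centred TPM, with no filter and at an adjusted p under 0.01, 3 after removing the GC trend and on log2(TPM + 1), and 1 to 2 when single libraries were left out. The number called lower was 0 on both TPM fits, with the GC trend removed and at an adjusted p under 0.01, and 0 to 1 without single libraries. Over all genes, 3699 were called, 1745 on median-centred TPM and 2824 to 3680 without single libraries. The share of calls that were higher was 54.3%, against 45.3% with upper-quartile factors, 87.8% on log2(TPM + 1), 45.7% on its centred form and 64.3% with the GC trend removed.

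Signs that turned, none of them past a threshold, were Cdk4 on TPM (0.31), centred TPM (0.060) and with the length trend removed (0.080), Cdk2 on TPM (0.10), Cdkn1b on TPM (0.00287), Cdk6 on centred TPM (−0.20), and Ccnd3 (−0.044) and Cdkn2d (−0.055) with the GC trend removed. The log2 ratio of Cdk6 to Cdk4 was 0.46 from counts over 1 length and 0.085 with the length trend removed, and −0.68 to 0.081 without single libraries; that of Rbl2 to Rb1 was 0.051, 0.036 and −0.12 to 0.097. That of Ccnd2 to Ccnd3, 0.74 in TPM, was 0.49 from counts over 1 length, 0.22 with the length trend removed and 0.55 to 0.91 without single libraries. That of Cdkn1b to Cdkn2d, −0.37 in TPM, was −0.28 from counts over 1 length and −0.44 with the length trend removed. With the GC trend removed the log2 fold changes of Cdkn1b (−0.04) and Cdkn2d (−0.06) lay close together. The causes were not tested.

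Same-numbered libraries of the tissues hardly deviated together (r of 0.0223, 0.00230 and 0.0652), so the numbers are not taken as pairs. With the replicate block 3 of the 10 genes were higher and 2 lower, adding Cdk6 (adjusted p = 0.0201) and Cdk2 (0.0313), and 4706 genes were called in all; paired sign-flip tests of the 4 ratios gave p of 0.25, 0.75, 0.25 and 1. At 3 libraries a group no ratio can pass 0.05.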

Other observations

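Among the 10 genes, Cdk6 had the least settled transcript length. RSEM assigned 8774, 6988 and 6982 nt in the mLN libraries, against 2869, 9252 and 5489 nt in the spleen libraries, and its annotated coding transcripts run from 376 to 11525 nt. Over the same spleen libraries the count level was 16.1, 16.9 and 21.3 CPM while TPM was 7.41, 2.24 and 4.86.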
